A study of Homo sapiens with 6 samples.

Results

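The urokinase system is described here through 5 genes picked by name: PLAU, PLAUR, PLAT, SERPINE2 and ANXA2. All 5 had a row among the 21676 gene symbols of the count table, and all 5 passed the filter on low counts that left 14629 genes to test. RNA sequencing covered 3 libraries of the 83 cell line with overexpression of ApoD and 3 control libraries of the same line, which the submitters call a SACC cell, usually short for salivary adenoid cystic carcinoma. The labels do not say how ApoD was introduced, what the control cells received, whether the cells are 1 clone, or whether the numbered libraries came from separate cultures. Every p below is thus against library-to-library spread, and that spread can be purely technical.

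Urokinase (PLAU) and tissue plasminogen activator (PLAT) are secreted serine proteases that cut plasminogen into the broad-acting protease plasmin. Urokinase binds its receptor uPAR (PLAUR), a surface protein with a lipid anchor, which holds proteolysis at the cell edge. Protease nexin-1 (SERPINE2) is a serpin that traps the activators, and annexin A2 (ANXA2), paired with S100A10, binds plasminogen and PLAT at the membrane. The system is known from cell migration and invasion in carcinomas.

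The libraries held 37542568 to 40416964 counts. The overexpressed gene APOD had 628, 528 and 625 counts with ApoD overexpression, against 9, 8 and 2 counts in controls. Differences were widespread: at an adjusted p of 0.05, edgeR's quasi-likelihood test called 48.8% of the tested genes, 24.2% higher and 24.6% lower. All 5 urokinase genes averaged 1000 counts or more per library, and of the 7070 genes that did so 55.3% were called, 37.5% higher and 17.8% lower. Scaling by library totals in place of trimmed means of M-values (TMM) moved the median log2 fold change of all genes to −0.13, against −0.017, and the calls to 2580 higher and 4435 lower, against 3539 and 3601. All 6 epithelial markers checked averaged at least 1 FPKM (counts scaled by gene length and library total). So did 3 of 5 myoepithelial and basal markers (TP63, KRT14 and ACTA2), 1 of 7 fibroblast markers (COL1A1) and 1 of 6 leukocyte markers (CD68). Of the salivary acinar markers 0 of 5 did, and of the endothelial markers 0 of 5. AMY1A and PRB1 (acinar), KDR (endothelial), PDGFRA (fibroblast) and CD3E (leukocyte) had 0 counts in every library or no row among the gene symbols.

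The receptor and the inhibitor rose with ApoD overexpression and both activators fell. PLAT fell 5.02-fold and PLAU 1.37-fold, SERPINE2 rose 2.09-fold and PLAUR 1.64-fold, while ANXA2, the most abundant of the 5 per length, was not called at 1.11-fold. The 4 calls, 2 higher and 2 lower, stand beside the 48.8% of all tested genes that were called. The libraries of the groups did not overlap in CPM for any of the 5, as for 58.7% of all tested genes. Fewer cells with a transcript and less of it per cell cannot be told apart in RNA from whole cultures.

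**Figure D1:**
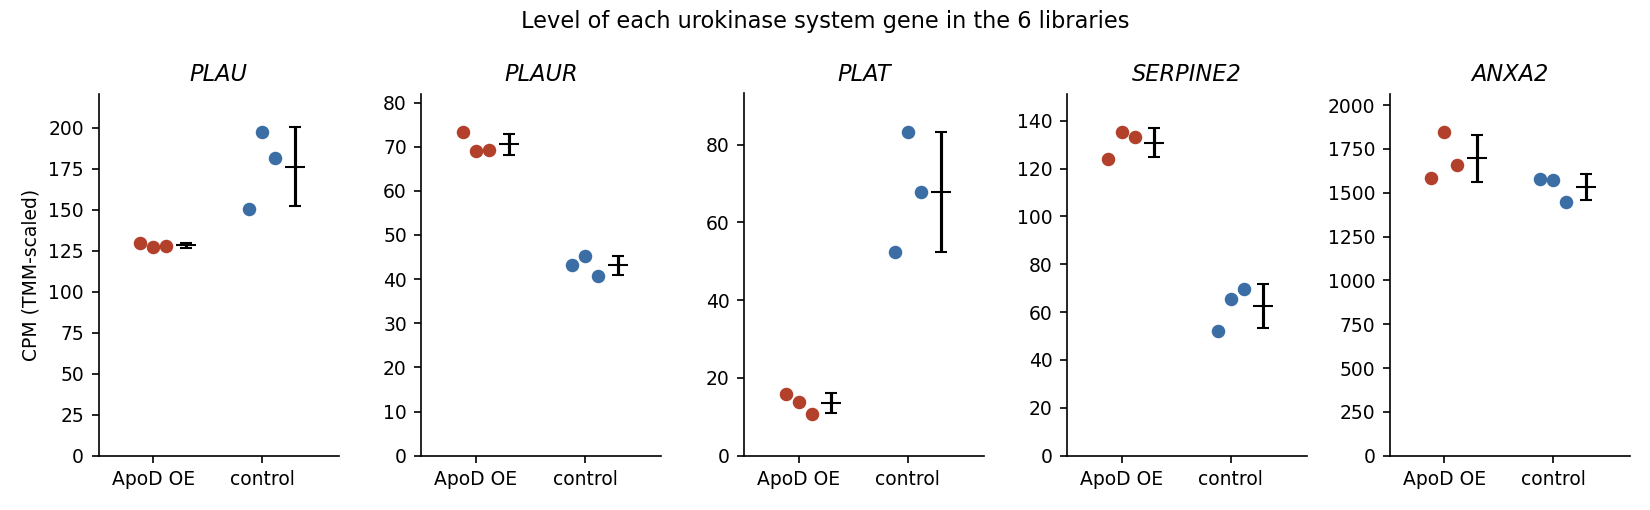
Each panel plots the CPM of 1 gene (counts in 1000000 of the library after TMM scaling; linear axis from 0); red points are the 3 ApoD overexpression (ApoD OE) libraries, blue points the 3 controls, and the black bars mean ± SD. PLAT sits between 10.8 and 15.8 CPM with ApoD overexpression and between 52.5 and 83.2 CPM in controls, whereas the highest ANXA2 control, 1579 CPM, nearly reaches the lowest ApoD overexpression library, 1585 CPM.

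The promoters of 4 of the 5 genes are shown because these genes went in different directions, so that a reader can set the letters around each transcription start beside the values. Each window runs from 250 bases before to 50 after a RefSeq start (GRCh38.p14), 5′ to 3′ on the gene's strand. Capitals mark matches, on either strand, to any of these motifs. The AP-1 motif was searched as TGANTCA. The motif of ETS factors was searched as AGGAAG. The GC box of SP1 was searched as GGGCGG. The TATA box was searched as TATAAA, and the CCAAT box by the letters of its name.
PLAUR promoter, chr19:43670120-43670419, minus strand: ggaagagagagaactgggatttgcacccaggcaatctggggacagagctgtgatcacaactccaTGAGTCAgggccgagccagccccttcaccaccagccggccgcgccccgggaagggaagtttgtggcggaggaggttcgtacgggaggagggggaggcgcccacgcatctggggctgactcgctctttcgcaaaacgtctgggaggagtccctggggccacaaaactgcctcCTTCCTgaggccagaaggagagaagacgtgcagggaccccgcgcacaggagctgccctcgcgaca
SERPINE2 promoter, chr2:224031429-224031728, minus strand: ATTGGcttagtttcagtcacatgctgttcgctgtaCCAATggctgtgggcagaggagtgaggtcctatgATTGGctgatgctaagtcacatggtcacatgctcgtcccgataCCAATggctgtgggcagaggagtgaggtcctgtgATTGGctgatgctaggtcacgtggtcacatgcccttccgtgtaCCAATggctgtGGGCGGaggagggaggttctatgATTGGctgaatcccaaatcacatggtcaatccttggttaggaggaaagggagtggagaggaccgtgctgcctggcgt
PLAU promoter, chr10:73910882-73911181, plus strand: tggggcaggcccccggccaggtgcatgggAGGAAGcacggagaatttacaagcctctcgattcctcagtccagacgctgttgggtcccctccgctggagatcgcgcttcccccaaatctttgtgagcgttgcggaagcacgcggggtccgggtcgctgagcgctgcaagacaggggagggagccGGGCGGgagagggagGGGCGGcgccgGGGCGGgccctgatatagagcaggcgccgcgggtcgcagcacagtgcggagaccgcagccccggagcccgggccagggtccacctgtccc
ANXA2 promoter, chr15:60397937-60398236, minus strand: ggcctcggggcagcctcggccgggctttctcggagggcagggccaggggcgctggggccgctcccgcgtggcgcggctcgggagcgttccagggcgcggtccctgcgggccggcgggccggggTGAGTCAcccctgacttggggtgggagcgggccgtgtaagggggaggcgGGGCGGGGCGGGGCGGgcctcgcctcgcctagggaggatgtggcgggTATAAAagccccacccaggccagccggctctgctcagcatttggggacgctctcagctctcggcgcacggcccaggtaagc

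The AP-1 letters occur once in the PLAUR window, 186 bases before the start, and once in the ANXA2 window, 127 bases before it; 7.71% of the 35116 RefSeq windows of this length hold them. PLAUR rose and ANXA2 was not called. The ETS letters, found in 33.6% of all windows, occur once each in the PLAUR and PLAU windows. The PLAU window has 3 GC boxes and the ANXA2 window 3, in a tract where neighbouring matches share a base; 45.0% of windows hold at least 1. The TATA letters, held by 11.5% of windows, begin 31 bases before the ANXA2 start and occur in none of the other 3 windows. The CCAAT motif was added after the sequence was seen. At least 1 match is held by 34.6% of windows, and the share with 7 or more was not counted. The SERPINE2 window contains 7 CCAAT matches counting both strands. They sit in a repeat: the run TACCAATGGCTGTGGGC occurs 3 times, with starts 77 bases apart. SERPINE2 and PLAU each have another RefSeq start, whose window is not printed, and gene counts do not tell which start was used. The window there holds 2 GC boxes and 0 CCAAT matches for SERPINE2, and 1 CCAAT match, 0 GC boxes and 0 ETS matches for PLAU. For SERPINE2 and for PLAU the printed window thus holds more matches than the other, and no rule for the choice is stated. These matches are letters in a window and not measured binding.

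PLAUR encodes the urokinase receptor. It had 73.3, 69.0 and 69.3 CPM in the ApoD overexpression libraries, against 43.3, 45.2 and 40.8 CPM in controls. The 3 ApoD overexpression libraries lay close together and well above every control. PLAUR averaged 70.5 ± 2.39 CPM with ApoD overexpression and 43.1 ± 2.19 CPM in controls (SD, n = 3 each), a log2 fold change of 0.71 ± 0.09 (SE; edgeR adjusted p = 6.95e-05). The difference was larger than the spread within either group.

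PLAU encodes urokinase itself. Its level was 129.9, 127 and 128 CPM with ApoD overexpression, against 150.2, 197 and 182 CPM in controls. The ApoD overexpression libraries were almost equal, while control replicate 1 lay below the other controls; the groups did not overlap. PLAU averaged 128 ± 1.42 CPM with ApoD overexpression and 176 ± 23.9 CPM in controls (SD, n = 3 each), and fell by 0.46 ± 0.10 on the log2 scale (SE; edgeR adjusted p = 0.00335). Of all tested genes 55.7% changed less than PLAU on the log2 scale, so its shift was of middling size here. C10orf55 overlaps PLAU on the opposite strand and had 8 to 19 counts per ApoD overexpression library, against 6 to 17 per control, where PLAU had at least 4517; the strand setting of the counting is not given in the sources used here.

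PLAT encodes tissue plasminogen activator, the other activator, best known as a product of endothelial cells. It stood at 15.8, 13.9 and 10.8 CPM with ApoD overexpression, against 52.5, 83.2 and 67.8 CPM in controls. Each control held over 3 times the level of any ApoD overexpression library. PLAT averaged 13.5 ± 2.52 CPM with ApoD overexpression and 67.8 ± 15.3 CPM in controls (SD, n = 3 each), and fell by 2.33 ± 0.18 on the log2 scale (SE; edgeR adjusted p = 2.31e-06). Its change exceeded that of 96.6% of the tested genes. The 5 endothelial markers also had lower summed levels with ApoD overexpression, 0.175 to 0.287 FPKM against 1.31 to 1.92 FPKM in controls, as did the 7 fibroblast markers, 1.58 to 2.27 against 4.86 to 5.73 FPKM, and the 5 myoepithelial and basal markers, 19.4 to 22.8 against 40.1 to 66.8 FPKM. The 6 leukocyte markers summed higher with ApoD overexpression, though narrowly, at 20.96 to 21.45 FPKM against 9.46 to 20.5 FPKM. The sums of the 6 epithelial markers overlapped, at 1678 to 1830 against 1554 to 2009 FPKM. Only CD68 of the leukocyte and COL1A1 of the fibroblast markers averaged at least 1 FPKM, and no endothelial marker did. The part of these marker sets in the PLAT difference was not tested.

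SERPINE2 encodes protease nexin-1, a cell-associated serpin that inhibits thrombin, urokinase, plasmin and tissue plasminogen activator. It had 124, 135 and 133 CPM with ApoD overexpression, against 52.2, 65.4 and 69.8 CPM in controls. The lowest control was again replicate 1, which for this gene lay farthest from the ApoD overexpression libraries, whereas for PLAU and PLAT it lay nearest to them. SERPINE2 averaged 131 ± 6.04 CPM with ApoD overexpression and 62.4 ± 9.18 CPM in controls (SD, n = 3 each), a log2 fold change of 1.07 ± 0.11 (SE; edgeR adjusted p = 1.95e-05). Of the tested genes 84.7% changed less.

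ANXA2 encodes a calcium-dependent membrane-binding protein that serves as a surface docking site for plasminogen and its tissue activator. Its level was 1585, 1845 and 1661 CPM with ApoD overexpression, against 1579, 1574 and 1447 CPM in controls. The groups did not overlap on this scale, but only narrowly, and on the FPKM scale they did, at 293 to 331 FPKM with ApoD overexpression and 293 to 309 FPKM in controls. The log2 fold change was 0.15 ± 0.09 (SE; edgeR adjusted p = 0.205), against 0.029 when libraries were scaled by totals and −0.058 once each library's trend with abundance was taken out. The 95% interval ran from 0.964-fold to 1.27-fold, so a rise of SERPINE2's size lies outside it. The genome also holds processed copies of ANXA2. Of 3 copies looked up by name, 0 had a row among the gene symbols, so they could not be analysed. Reads may be shared with them.

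Per gene length, the order of the 5 transcripts differed between the groups. With ApoD overexpression it ran ANXA2 (309 ± 19.9 FPKM), SERPINE2 (48.6 ± 1.60), PLAU (44.4 ± 1.14), PLAUR (21.5 ± 1.03) and PLAT (4.24 ± 0.822), and no neighbours overlapped over the 3 libraries. In controls it ran ANXA2 (303 ± 8.80 FPKM), PLAU (66.3 ± 9.59), SERPINE2 (25.3 ± 4.17), PLAT (23.1 ± 5.30) and PLAUR (14.3 ± 0.543); SERPINE2 and PLAT overlapped and the other neighbours did not (SD, n = 3). By FPKM the inhibitor SERPINE2 thus stood above urokinase in each ApoD overexpression library and below it in each control. The order with ApoD overexpression depends in part on the lengths, 2578 bases for SERPINE2 and 2772 for PLAU. In CPM, ApoD overexpression replicate 1 had more PLAU than SERPINE2, at 129.9 against 124. Replicates 2 and 3 had less, at 127 against 135 and 128 against 133. PLAT made up 9.92%, 9.01% and 7.11% of the summed FPKM of both activators with ApoD overexpression, against 24.0%, 27.6% and 25.3% in controls.

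Ratios within a library do not depend on how libraries are scaled. Ratios of FPKM do depend on the 1 length taken for each gene, so they are not counts of transcripts. Their fold between groups does not depend on those lengths. The lengths were, for example, 5266 bases for ANXA2 and 671 for S100A10, and ANXA2 had more counts in every library. The FPKM of PLAU was 2.01, 2.09 and 2.09 times that of PLAUR with ApoD overexpression, against 3.94, 4.95 and 5.04 in controls. The ratio of urokinase to its receptor was thus 2.24-fold lower with ApoD overexpression, and the groups did not overlap. PLAU per SERPINE2 was 0.976, 0.875 and 0.893 with ApoD overexpression, against 2.68, 2.81 and 2.42 in controls, a 2.88-fold lower ratio. PLAU per PLAT was 9.08, 10.1 and 13.1 with ApoD overexpression, against 3.16, 2.62 and 2.96 in controls, a 3.66-fold higher ratio. ANXA2 per S100A10 differed by little but without overlap, at 0.469, 0.485 and 0.491 with ApoD overexpression and 0.406, 0.410 and 0.403 in controls. Each of these 4 ratios gave an exact two-sided permutation p of 0.1, the smallest that 3 against 3 libraries allow, and 0.125 adjusted over the 5 ratios fixed for testing.

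**Figure D2:**
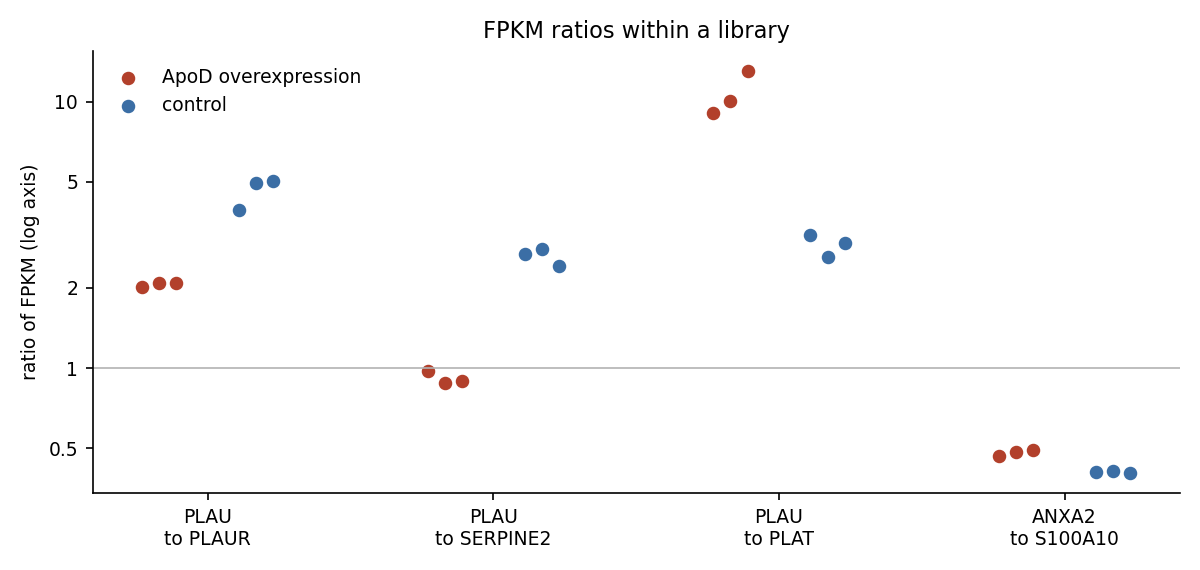
Ratios of FPKM within each library on a log axis, with the 3 ApoD overexpression libraries in red left of the 3 controls in blue for each ratio; the grey line marks equal FPKM. PLAU per SERPINE2 lies below 1 in the ApoD overexpression libraries (0.875 to 0.976) and above 2 in the controls (2.42 to 2.81), while PLAU per PLAT is higher in the ApoD overexpression libraries (9.08 to 13.1) than in the controls (2.62 to 3.16).

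Other inhibitors of the plasminogen system mostly moved the other way from SERPINE2. Of 10 tested, 9 fell and 1 rose, where 24.6% of all tested genes fell and 24.2% rose. The median log2 fold change was −0.75, beside −0.017 for all tested genes. Those that fell numbered 8 with the abundance trend removed or with libraries blocked by replicate number. They numbered 8 without control replicate 1 or any 1 ApoD overexpression library, and 7 without control replicate 3. In the limma fits, 7 of 8 tested fell on filtered FPKM and 8 of 12 without a filter. The members that fell include the plasmin inhibitor SERPINF2 (α2-antiplasmin), at 0.883 ± 0.0924 CPM with ApoD overexpression and 5.44 ± 1.45 CPM in controls (SD, n = 3), and neuroserpin SERPINI1, an inhibitor of PLAT, with a change of −1.05 ± 0.22 (SE). SERPINB2, plasminogen activator inhibitor 2, fell by 0.49 ± 0.16 on the log2 scale (edgeR adjusted p = 0.0242); that call was lost in 6 of 15 alternative fits, 4 of which left out control replicate 1 or 3 or ApoD overexpression replicate 1 or 3, with adjusted p over all of them of 0.00358 to 0.230. PZP, a broad protease inhibitor, had 0 counts in every ApoD overexpression library against 13, 39 and 19 in controls. That is at least 21.8-fold lower with a floor of 3 counts over the group. SERPINA5 had 0, 0 and 5 counts with ApoD overexpression, against 11, 13 and 34 in controls. PZP and SERPINA5 passed the low-count filter only through the controls, so for them the filter leaned towards calls of lower. The member that rose was TFPI2, which inhibits plasmin among other proteases, with a change of 1.15 ± 0.19.

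Plasminogen itself was nearly absent. PLG had 0 counts in the 3 ApoD overexpression libraries and 2, 1 and 1 counts in controls, so it was not tested. Among the proteases that can activate pro-urokinase, matriptase (ST14) fell to 28.0 ± 2.53 CPM with ApoD overexpression, against 113 ± 13.8 CPM in controls (SD, n = 3), a change of −2.01 ± 0.12 (SE; edgeR adjusted p = 3.23e-07), and cathepsin B (CTSB) fell by 0.74 ± 0.14 on the log2 scale. Cathepsin L (CTSL) rose by 0.32 ± 0.10 with TMM, a call that was lost in 6 of 15 alternative fits, among them scaling by totals (adjusted p = 0.119), removal of the abundance trend (0.368), the limma fits and without control replicate 2 (0.0647). Of 10 listed activators and zymogens 4 could be tested.

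At the surface, S100A10, the partner of ANXA2, had 431, 485 and 431 CPM with ApoD overexpression and 495, 489.7 and 457 CPM in controls, so the groups overlapped. Its log2 fold change was −0.10 ± 0.09 (SE; edgeR adjusted p = 0.381), but with library totals it was called lower at −0.22 (adjusted p = 0.0376) and with the abundance trend removed at −0.31 (0.00571). The plasminogen-binding enolase ENO1 was not called either, at 0.20 ± 0.09, while the plasminogen receptor PLGRKT fell by 0.68 ± 0.17. Of the 6 tested plasminogen-binding proteins and annexin A2 partners, 1 rose and 3 fell. The median was −0.39, beside −0.017 for all tested genes, of which 48.8% were called. Those that fell numbered 4 with library totals or in the limma fits on filtered FPKM. They numbered 2 without control replicate 2 or 3 or without ApoD overexpression replicate 1 or 3.

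Genes that clear or partner the urokinase receptor divided into 4 that rose, 6 that fell and 6 without a call, at a median of −0.10. Of all tested genes 24.2% rose and 24.6% fell, so the share that rose was near that of all genes. LRP1, the endocytic receptor that takes up urokinase complexes with their receptor, had 138, 111 and 121 CPM with ApoD overexpression, against 289.8, 395 and 326 CPM in controls. It fell by 1.45 ± 0.12 on the log2 scale (SE; edgeR adjusted p = 5.43e-06, n = 3 each), without overlap. VLDLR, a relative that also takes up such complexes, and MRC2, a collagen receptor that associates with uPAR, fell with changes of −2.30 ± 0.48 and −2.47 ± 0.33 from low levels, 2.95 ± 1.27 and 4.86 ± 1.73 CPM in controls. IGF2R, the mannose 6-phosphate receptor, had a change of 0.21 ± 0.10 and was not called, though it was without control replicate 1 (adjusted p = 0.0335). Vitronectin (VTN), the matrix ligand of uPAR, had 2, 3 and 9 counts with ApoD overexpression and 36, 2 and 19 counts in controls and was not tested. Among the integrin chains that uPAR is known to pair with, ITGB5 rose by 0.80 ± 0.09, ITGB6 fell with a change of −1.67 ± 0.23, and 5 others were tested and not called. ITGB3 fell too, at 4, 8 and 4 counts with ApoD overexpression, against 18, 47 and 105 counts in controls. It passed the low-count filter only through the controls. Its change of −3.25 ± 0.69 was −2.44 without control replicate 3, and its call was lost on unfiltered log2(FPKM + 1) (adjusted p = 0.117).

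**Figure D3:**
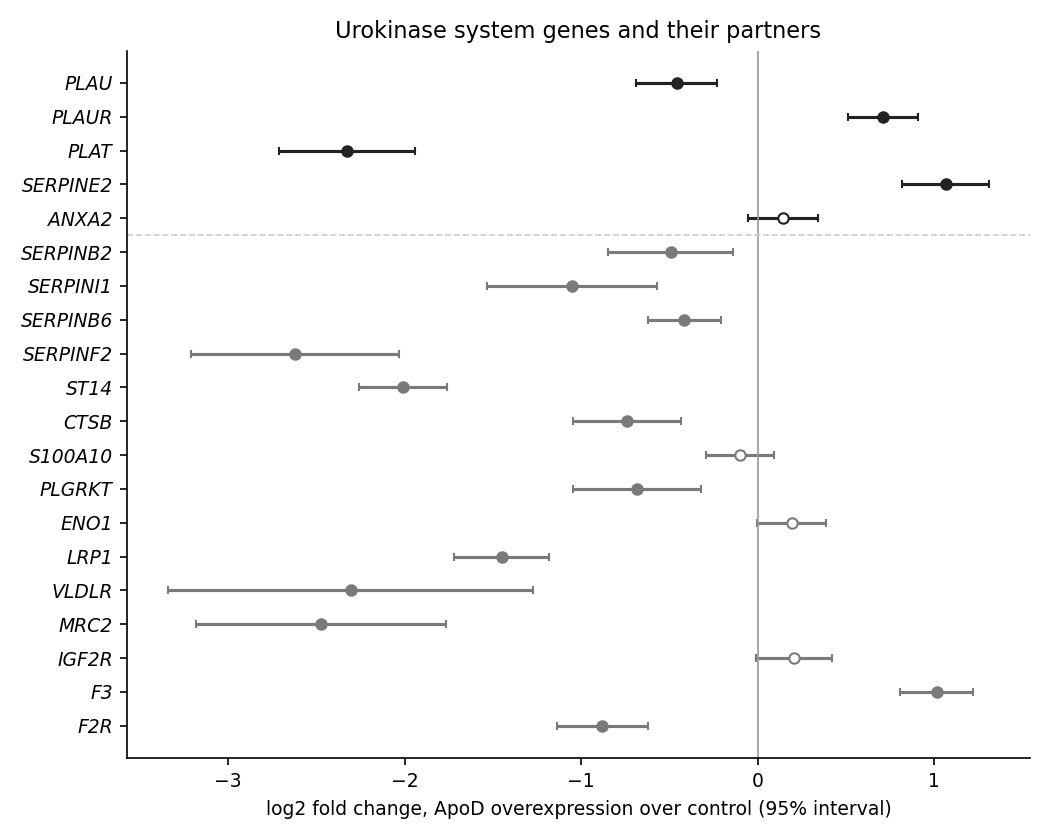
Log2 fold change, ApoD overexpression over control (x axis), with its 95% interval, for the 5 urokinase system genes above the dashed line and 15 tested partners below it; filled points passed the adjusted p of 0.05 and open points did not. PLAUR and SERPINE2 lie right of 0 and PLAU and PLAT left of it, and LRP1 (−1.45) and ST14 (−2.01) lie farther left than PLAU (−0.46).

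Plasmin substrates and proteases downstream were split, with 4 of 12 tested members higher and 6 lower, beside 24.2% and 24.6% of all tested genes. Their median was −0.64, but 0.066 and 0.068 in the limma fits on filtered FPKM, where 9 of them were tested. The collagenases MMP1 and MMP13, whose proforms plasmin can cut, fell, with changes of −2.48 ± 0.17 and −3.35 ± 0.28. MMP10 fell too, with 26, 7 and 10 counts with ApoD overexpression, against 114, 155 and 59 in controls. It passed the low-count filter only through the controls. Among those that rose were fibronectin (FN1), by 1.05 ± 0.10, and TGFB1, by 0.40 ± 0.09 on the log2 scale (SE). Of 7 tested thrombin system genes, 1 rose and 3 fell, or 2 and 3 without control replicate 3: tissue factor (F3), which starts coagulation, rose by 1.02 ± 0.10 and the thrombin receptor F2R, whose activating protease SERPINE2 inhibits, fell by 0.88 ± 0.12 on the log2 scale. In the protein family of PLAUR, which shares the Ly6/uPAR fold, 1 of 11 tested members rose and 4 fell; for both lists, 24.2% and 24.6% of all tested genes are the shares to set beside them. The listed relative closest to PLAUR by architecture, LYPD3, was not called (0.15 ± 0.10, 95% interval −0.064 to 0.36). In the annexin family beside ANXA2, 2 of 11 rose and 5 fell, where 24.2% and 24.6% of all tested genes did; ANXA3 rose by 0.68 ± 0.14 and ANXA4 fell with a change of −1.18 ± 0.11. With library totals or the abundance trend removed, 1 annexin rose and 5 fell. Those that fell numbered 3 without control replicate 2 or without ApoD overexpression replicate 1 or 3, and 1 rose without control replicate 2 or 3 or without ApoD overexpression replicate 2.

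Transcription factors known to act at the PLAU gene went in both directions, with 6 of 16 higher and 7 lower, beside 24.2% and 24.6% of all tested genes. The lower ones numbered 4 without control replicate 2, control replicate 3 or ApoD overexpression replicate 3. The AP-1 subunits FOSL1 and JUN rose by 1.71 ± 0.13 and 1.26 ± 0.12 on the log2 scale. FOS, FOSL2 and JUNB fell, with changes of −1.22 ± 0.27, −0.84 ± 0.10 and −0.40 ± 0.10. JUND and FOSB were not called. FOSL2 and JUNB averaged 168 and 347 CPM in controls. FOSL1 averaged 62.1 ± 8.26 CPM with ApoD overexpression and 19.0 ± 2.42 CPM in controls (SD, n = 3). Among 8 proteins that bind PLAUR or PLAU mRNA or mRNAs of that kind, 2 rose and 3 fell; KHSRP, a decay factor, rose by 0.73 ± 0.10 and ZFP36, another, fell by 0.78 ± 0.16. Over all 100 tested genes of the plasminogen system lists, with the 5 urokinase genes left out, 23 rose and 47 fell at a median of −0.26. Over all tested genes 24.2% were higher and 24.6% lower, at a median of −0.017. Of genes averaging 1000 counts or more, 37.5% were higher and 17.8% lower, so these shares vary with abundance. Shares matched to the abundance of the listed genes were not computed. PZP, SERPINA5, ITGB3 and MMP10, among those that fell, passed the low-count filter only through the controls. The lists were picked by known function, but with earlier results of these data known. The counts thus describe the lists and are not a test of them.

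**Figure D4:**
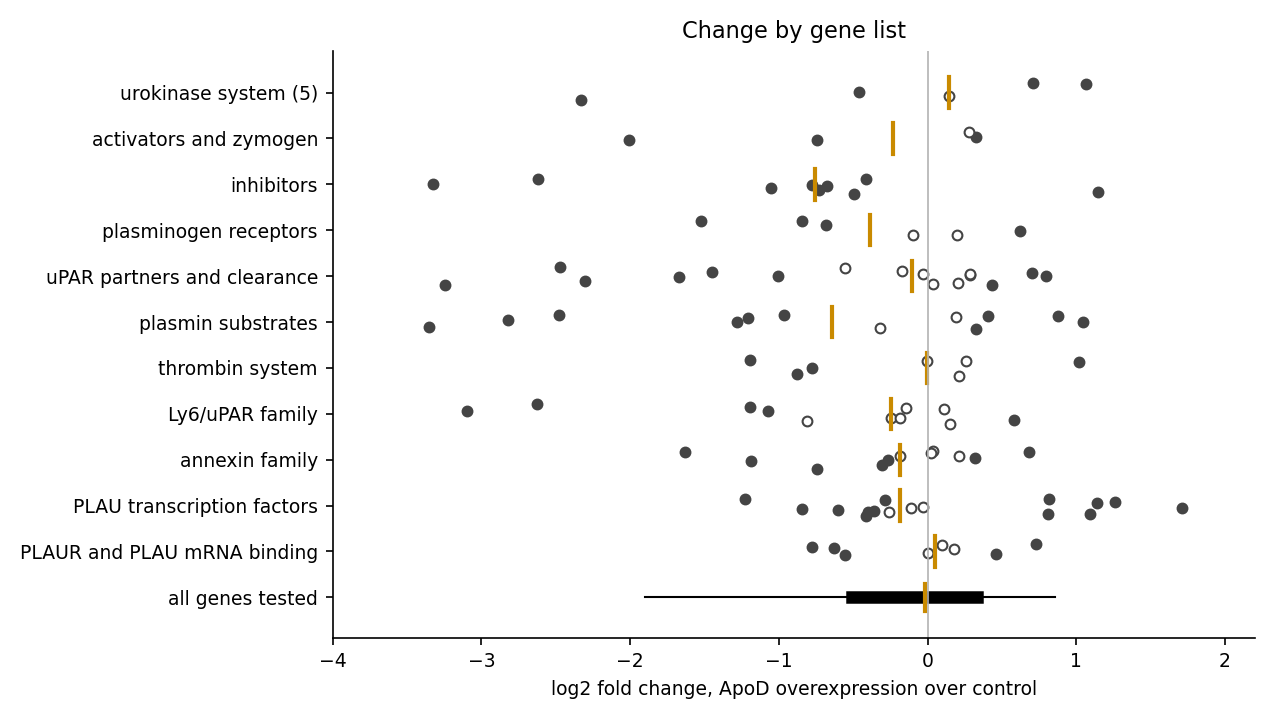
Log2 fold change (x axis), ApoD overexpression over control, of each tested gene by list; filled points passed the adjusted p of 0.05, open points did not, orange bars are medians, and 1 inhibitor, PZP, lies left of the plotted range. The bottom row gives all tested genes (thick line, 25th to 75th percentile; thin line, 5th to 95th percentile); the inhibitors other than 1 lie left of 0.

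The genes most like each urokinase gene over the 6 libraries were found by the root mean square distance of centred log2 CPM, among the 11505 genes that averaged 100 counts or more. For PLAU the nearest were TFAP2A (distance 0.0297), LOXL2 (0.0316) and MINK1 (0.0321). For PLAUR the nearest was ZBTB9 (0.0296), for ANXA2 POLDIP3 (0.0216), for SERPINE2 ROR1 (0.0777) and for PLAT PRXL2A (0.103). PLAT and SERPINE2, which changed most, had less close neighbours than the other 3 genes. With 6 libraries in 2 groups, such likeness rests largely on a similar group difference.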

How the data were processed

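RNA of 3 ApoD overexpression and 3 control libraries of the 83 cell line was extracted with an RNeasy kit and made into libraries with a SMARTER mRNA-Seq kit, per the labels' protocols. The authors deposited whole-number read counts per gene symbol for 21676 symbols, per the file headers. They also deposited FPKM values, and all 108650 values above 0 equalled count divided by library total and by 1 whole-number gene length (relative tolerance 1e-06). The aligner, counting program, strand setting and genome build are not given in the labels or file headers, and 0 columns were left without a sample.

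Counts were tested with edgeR 4.0.16 (quasi-likelihood F test, TMM, filterByExpr with a minimum count of 10, R 4.3.3), two-sided, with Benjamini-Hochberg adjustment over 14629 genes. Each SE is the absolute log2 fold change over the root of F. Ratios were tested by exact permutation. The fit was first tested on simulated data with 200 changed genes. Far more genes were called in the real data, so the simulation does not show the error rate or scaling here. Alternatives used DESeq2 1.42.0, limma 3.58.1 on log2(FPKM + 1) or log2(FPKM + 0.1) with at least 1 FPKM in 3 libraries or no filter, other scalings, and each library left out. At these depths the counting error of the urokinase genes is small; a group floor of 3 counts covers counting error only.

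The urokinase genes and the lists were chosen with earlier results of these data known. Named were the 5 genes, 15 further genes fixed by name, up to 4 called genes per list by size of change, and the 3 nearest genes per urokinase gene, of which the text gives a part; 1 listed gene and the ratio that used it are not reported here. COL1A1, CD68, TP63, KRT14, ACTA2, ITGB5, FN1, TGFB1, FOSL2, JUNB, JUND, FOSB and the markers without counts stand outside that rule. They were named after their values were seen. No 2 libraries were copies (chi-square per degree of freedom 11.9 to 42.9 within groups). Promoters came from a RefSeq table that gave windows for the 4 genes looked up.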

Additional observations from a re-analysis of the deposited data

How the results depend on the processing

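Over 15 alternatives, PLAUR stayed higher at log2 fold changes of 0.56 to 0.75, SERPINE2 at 0.90 to 1.17, PLAU lower at −0.65 to −0.37 and PLAT at −2.48 to −2.15, each under an adjusted p of 0.05 in each of them (highest 0.0275, PLAU without control replicate 2). ANXA2 was not called under any (adjusted p 0.128 to 0.796), and its direction reversed with the abundance trend removed (−0.058); the cause was not tested. The 4 ratios kept their direction under all 8 alternatives each, but these alternatives could not reverse it. Ratios of counts and the replicate block leave the difference unchanged, and groups without overlap keep their order when 1 library is left out. Genes called higher numbered 2317 on unfiltered log2(FPKM + 1), against 3539 by edgeR, and the count of genes called lower and both counts over the plasminogen system lists stayed within 1.5 times. Counts of some single lists moved more, such as the Ly6/uPAR genes called lower, 7 of 17 with no filter against 4 of 11. Same-numbered libraries did not deviate together (correlations −0.12, −0.01 and −0.04); with the replicate block 3088 genes were called higher and 3260 lower, 22 and 44 of them in the plasminogen system lists, and the calls of the urokinase genes were as without it, while SERPINB2 lost its call (adjusted p = 0.0541). Partner genes differed in call in 36 of 685 fits and reversed in none. These were 6 each for SERPINB2, CTSL and LYPD5, 5 for ANXA2R, 4 each for S100A10 and PAX8, 3 for SERPINA5, and 1 each for IGF2R and ITGB3. Depth does not limit the urokinase genes, each with at least 414 counts in every library, but it limits PLG, VTN and PZP.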
